A study of Mus musculus with 8 samples.

Results

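The genes examined were 9 transcription factors that set or maintain the identity of macrophages: Cebpa, Runx1, Irf8, Maf, Cebpb, Klf2, Klf4, Klf6 and Bhlhe40. They were taken by gene symbol from an expression table of 23346 mouse genes, and all 9 were among the 20595 genes tested after a filter on low values. For the same genes, Ets1 ChIP-seq peaks were collected where they lay within 10 kb of the start site or inside the gene body. RNA came from primary bone marrow-derived macrophages of male mice aged 8 weeks, grown for 7 days in medium with 10% FBS and 10 ng/ml M-CSF, the growth factor that drives marrow cells toward macrophages. The 3 control libraries had the genotype Ets1 f/f, and the 3 knockout libraries had the genotype Ets1 f/f * Lyz2-cre. Both groups therefore carried the floxed alleles, and only the knockouts carried Cre, which is driven by the Lyz2 gene in myeloid cells and acts only where Lyz2 is on. Ets1 ChIP-seq, which maps where the Ets1 protein sits on DNA, was done on wild type C57 macrophages cultured in the same way and then taken through M1 or M2 polarization, with 1 ChIP library for each. The labels do not name the polarizing agents, and they name no polarization for the RNA libraries, so the RNA and the peaks come from cells in different states.

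Macrophages are specified in the marrow in steps. RUNX1 with its partner CBFB, and then C/EBPα, open the myeloid program, and IRF8 directs progenitors toward monocytes and away from granulocytes. In the mature cell MAF holds back proliferation and supports genes of tissue-resident macrophages, while C/EBPβ supports survival and the acute-phase program. Of the Krüppel-like factors, KLF2 and KLF4 are known to restrain inflammatory activation and KLF6 to promote it. BHLHE40 is a repressor known in mouse macrophages and T cells to silence Il10 and, in macrophages of body cavities, Maf. Ets1 is a factor of the ETS family, whose members bind DNA around the core letters GGAA.

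The RNA libraries held between 16897873 and 20259175 reads on genes, and between 18980 and 20217 genes were detected in each. Values are normalized counts, meaning gene reads that the authors divided by 1 size factor per library. Ets1 itself measured 3641, 3337 and 2869 in controls and 825, 755 and 645 in knockouts, so RNA from the locus was lower in each knockout library but not absent. The labels do not name the floxed segment, so reads from the rest of the gene are counted with it. The macrophage markers Adgre1, Csf1r, Cd68, Mertk, Fcgr1, Itgam, Cd14 and Cx3cr1 were present in both groups and summed to between 134758 and 158192 in controls and between 168746 and 169128 in knockouts. Of these 8, Adgre1 passed the test as higher in knockouts and Csf1r as lower. The log2 fold change was negative for 6 of the 8, with a median of -0.11, so the higher sum does not describe most of these markers.

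Markers of other cells were mostly lower in the knockouts, where 10.5% of all genes tested were called lower. All 9 stromal markers passed the test as lower, and their sum fell from between 10750.3 and 15944 in controls to between 3465 and 4204 in knockouts. Of 11 neutrophil and precursor markers 8 were lower, with sums from 20213 to 23652 in controls and from 11532 to 12036 in knockouts. Megakaryocyte markers were lower in 4 of 5 tested, with sums from 2866 to 4808 against 1062 to 1246. Mast cell and basophil markers were lower in 4 of 6, with sums from 163 to 235 against 31.6 to 42.5, and Cpa3 and Fcer1a were at 0 in every knockout library. B cell markers were lower in 5 of 7, with sums from 807 to 1039 against 603 to 627, most of it from Cd79b, which did not pass. Endothelial markers were lower in 3 of 7 (212 to 314 against 146 to 236), dendritic cell markers in 1 of 6 (116 to 170.1 against 67.1 to 76.9), T and NK cell markers in 1 of 5 (16.7 to 30.8 against 4.86 to 16.8) and erythroid markers in 1 of 3 (18.7 to 24.7 against 7.62 to 13.4). Ncr1 of the T and NK list and Hba-a1 of the erythroid list were at 0 in every knockout library. The part of these cells in any result that follows was not tested.

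For 7 of the 9 factors RefSeq gave a promoter window on build GRCm38.p6, reaching from 250 bases before a start site to 50 bases after it. The windows below are shown because an Ets1 peak overlaps each of them in both states, and because they belong to the 3 factors with a window whose RNA passed the test (Klf6, Klf2 and Cebpb), to 2 factors whose call depended on the method or did not pass (Irf8 and Klf4) and to the second promoter of Runx1. Each reads 5′ to 3′ on the strand of the gene, and capitals mark GGAA or, where the core lies on the other strand, TTCC.
Klf6, chr13:5861239-5861538, plus strand: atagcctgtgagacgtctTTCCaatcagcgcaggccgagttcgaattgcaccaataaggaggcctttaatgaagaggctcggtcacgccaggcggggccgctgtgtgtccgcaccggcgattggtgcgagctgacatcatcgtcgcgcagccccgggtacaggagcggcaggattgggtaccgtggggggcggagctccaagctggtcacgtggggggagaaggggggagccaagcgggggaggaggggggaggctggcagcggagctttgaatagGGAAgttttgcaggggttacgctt
Klf2, chr8:72318812-72319111, plus strand: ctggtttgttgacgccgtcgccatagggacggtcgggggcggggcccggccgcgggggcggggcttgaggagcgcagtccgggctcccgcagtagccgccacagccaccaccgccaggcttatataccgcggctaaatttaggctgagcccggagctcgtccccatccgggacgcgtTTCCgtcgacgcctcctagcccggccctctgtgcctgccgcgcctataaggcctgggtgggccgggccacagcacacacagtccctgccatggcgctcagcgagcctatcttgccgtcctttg
Cebpb, chr2:167688665-167688964, plus strand: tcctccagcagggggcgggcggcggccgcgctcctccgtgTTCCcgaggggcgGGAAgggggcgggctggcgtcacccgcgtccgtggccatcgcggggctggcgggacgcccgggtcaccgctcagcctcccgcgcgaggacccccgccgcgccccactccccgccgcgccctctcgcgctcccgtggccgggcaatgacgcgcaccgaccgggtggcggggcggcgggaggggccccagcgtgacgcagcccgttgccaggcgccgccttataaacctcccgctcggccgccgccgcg
Irf8, chr8:120736108-120736407, plus strand: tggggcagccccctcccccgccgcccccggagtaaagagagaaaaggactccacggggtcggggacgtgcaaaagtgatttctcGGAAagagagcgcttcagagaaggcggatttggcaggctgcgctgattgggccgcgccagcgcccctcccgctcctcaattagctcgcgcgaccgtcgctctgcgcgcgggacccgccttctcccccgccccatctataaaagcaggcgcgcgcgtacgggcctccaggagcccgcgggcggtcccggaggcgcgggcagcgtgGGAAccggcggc
Klf4, chr4:55532426-55532725, minus strand: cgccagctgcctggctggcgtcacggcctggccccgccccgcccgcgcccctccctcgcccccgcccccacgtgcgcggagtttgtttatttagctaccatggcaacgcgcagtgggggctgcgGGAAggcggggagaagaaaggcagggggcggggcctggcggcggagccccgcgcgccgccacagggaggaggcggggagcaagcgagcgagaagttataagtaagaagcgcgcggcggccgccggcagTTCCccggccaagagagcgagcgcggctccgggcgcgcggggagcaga
Runx1, chr16:92697280-92697579, minus strand: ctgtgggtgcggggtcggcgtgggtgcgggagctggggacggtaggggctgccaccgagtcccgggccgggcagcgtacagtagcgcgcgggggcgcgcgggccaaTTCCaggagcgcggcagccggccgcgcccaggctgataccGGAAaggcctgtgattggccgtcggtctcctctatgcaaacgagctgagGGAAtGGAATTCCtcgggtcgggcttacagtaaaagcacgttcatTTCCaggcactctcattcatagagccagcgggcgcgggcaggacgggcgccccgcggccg

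The core GGAA, searched on both strands, was present in all 9 promoter windows of the 7 factors (Irf8 and Runx1 have 2 windows each), but it was also present in 96.0% of all windows of this length in the RefSeq table. The longer form CCGGAA, which contains GGAA and was searched on both strands, was found in 1 of the 9 windows, against 14.9% of all windows, 33.3% of windows with an M1 peak and 33.2% of windows with an M2 peak. That window is the second Runx1 promoter printed above, where CCGGAA begins 106 bases before the start. An Ets1 peak overlapped 8 of the 9 windows in M1 and 8 in M2, and the exception was the second Irf8 window, at chr8:120738389-120738688. Of all 32851 windows, whether or not the gene was expressed, 8598 had an M1 peak and 9149 an M2 peak. A match of letters is a description of the window and not a measured site, and windows with no CCGGAA lay under peaks in both states.

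Across the 9 factors, Maf, Klf6 and Klf2 were higher in Ets1 knockout macrophages, by 1.37-fold to 1.50-fold, and Cebpb was lower. Irf8 and Bhlhe40 were below the controls in every knockout library but did not pass the test. Klf4, Cebpa and Runx1 overlapped between the groups. Of all genes tested by limma, 10.4% were called higher and 10.5% lower at an adjusted p under 0.05, against 3 and 1 of the 9 factors. The 2 groups of libraries did not overlap for 6 of the 9 factors, against 36.8% of all genes tested. The median log2 fold change was -0.0059 over the 9 factors and -0.04 over all genes tested. In bulk RNA, fewer cells of a type and less RNA per cell cannot be told apart, and this holds for each level below. The labels do not say whether the libraries came from separate animals or cultures, so p-values measure the spread between these libraries.

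**Figure D1:**
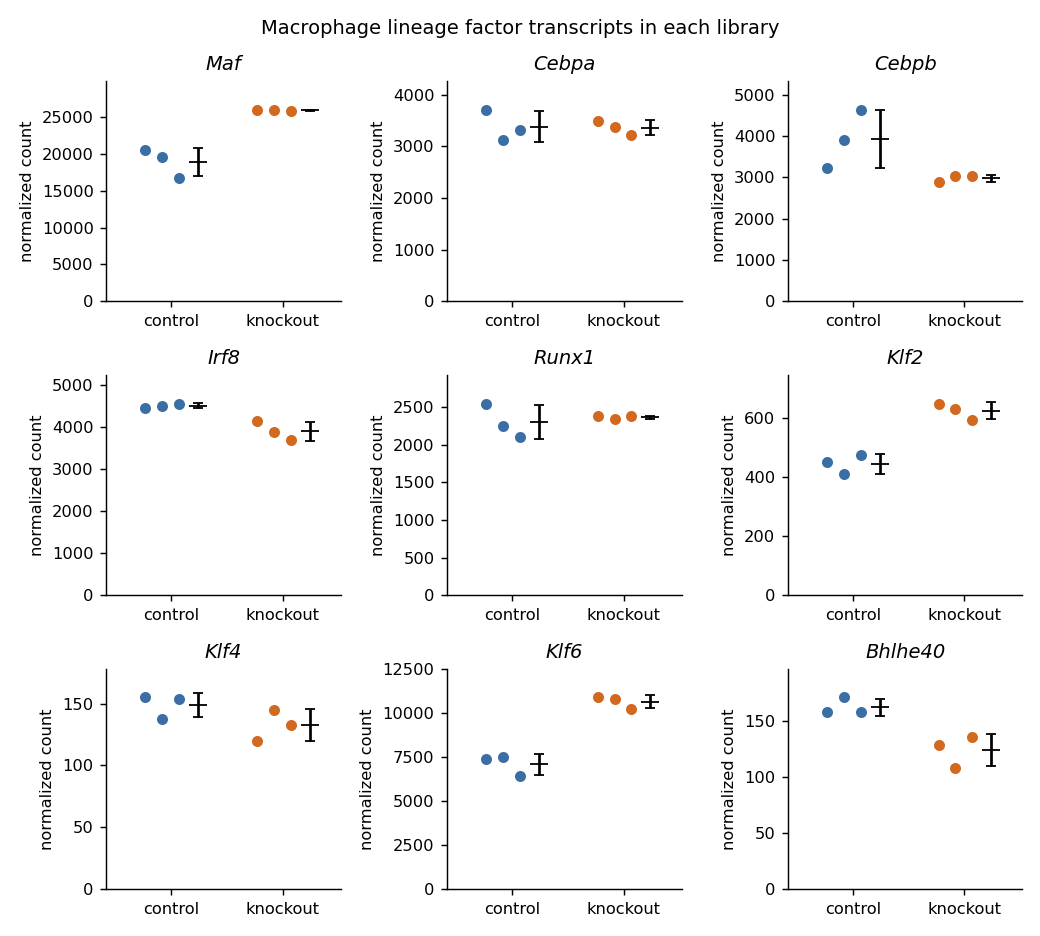
Normalized counts of the 9 factors in each RNA library. Points are single libraries (blue, control; orange, knockout), and bars are the mean with SD of 3 libraries. All 3 knockout points of Maf, Klf2 and Klf6 lie above all control points, and those of Cebpb, Irf8 and Bhlhe40 lie below them, while Cebpa, Runx1 and Klf4 overlap.

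The factors that act first in the lineage differed least. Cebpa (chr7, 35119293 to 35121928, plus strand), whose product C/EBPα commits progenitors to the myeloid fate, measured 3709, 3125 and 3315 in controls and 3498, 3378 and 3212 in knockouts. Each knockout library lay within the range of the controls. Its log2 fold change was -0.0059 with a 95% interval from -0.18 to 0.17 (limma, adjusted p = 0.968). Runx1 (chr16, 92601466 to 92826149, minus strand), which is needed for blood formation in the embryo and binds enhancers of Csf1r and Spi1, measured 2549, 2248 and 2109 in controls and 2382, 2346 and 2381 in knockouts. These values also overlapped, and the 3 knockout libraries lay close together. Its log2 fold change was 0.046, with an interval from -0.13 to 0.22 (limma, adjusted p = 0.728). The signs themselves were not stable, since Cebpa was at 0.062 without control library 1 and Runx1 at -0.015 without control library 3.

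Irf8 (chr8, 120736358 to 120756694, plus strand), the factor that favours monocytes and dendritic cells over granulocytes, measured 4442, 4510.1 and 4559 in controls and 4133, 3870.5 and 3693 in knockouts. Each knockout library was below each control, and the controls were close together with an SD of 58.8 around 4504 against 222 around 3899. The log2 fold change was -0.21 ± 0.07 (SE), with an interval from -0.36 to -0.05 and an adjusted p of 0.0564 in limma, just short of the threshold. Irf8 did pass with edgeR on whole reads recovered from the table (-0.25, adjusted p = 0.0217) and with DESeq2 (adjusted p = 0.0362). The authors' deposited value is the same as this DESeq2 value, so it is not a separate result. Irf8 passed with values scaled to total reads too (-0.34, adjusted p = 0.00431) and without control library 1 (adjusted p = 0.0297). Without any other 1 library it did not pass (adjusted p from 0.0592 to 0.22). Irf8 is also made by B cells and dendritic cells, whose marker sums were lower in knockouts as given above, and their part in the Irf8 value was not tested.

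Maf (chr8, 115682942 to 115707794, minus strand), the large MAF factor of resident macrophages, measured 20486, 19528 and 16743 in controls and 25907, 25997 and 25827 in knockouts. All knockout libraries were above all controls. The means were 18919 ± 1945 and 25910.0 ± 85.0 (SD, n = 3 each), a 1.37-fold difference. On the log2 scale this was 0.46 ± 0.09 (SE), with an interval from 0.27 to 0.65 (limma, adjusted p = 0.00354).

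Cebpb (chr2, 167688915 to 167690418, plus strand), whose product C/EBPβ supports monocyte survival and responses to infection, measured 3239.7, 3899 and 4639 in controls and 2888, 3026 and 3026 in knockouts. Each knockout library lay below every control, but the controls were spread widely. The means were 3926 ± 700 and 2979.8 ± 79.8, and the control mean was 1.32 times the knockout mean. The log2 fold change was -0.38 ± 0.11 (SE), with an interval from -0.62 to -0.15 (limma, adjusted p = 0.0259). This call rested on the full set of libraries. It was lost without control library 2 (adjusted p = 0.121), control library 3 (log2 fold change -0.25, adjusted p = 0.0503) and knockout library 1 (0.127), 2 (0.112) or 3 (0.0939), and it held only without control library 1 (0.000544). The listed Cebpb span overlaps Tmem189 on the other strand, which measured 1614 ± 81.9 in controls and 1502 ± 42.2 in knockouts (limma, adjusted p = 0.371). Whether the counting used strand is not stated, so reads of the pair cannot be told apart where they overlap. The ratio of Cebpa to Cebpb within a library was 0.869 in controls and 1.13 in knockouts with overlapping groups, a difference of 0.38 on the log2 scale (exact two-sided permutation test, p = 0.3).

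The Krüppel-like factors went different ways. Klf6 (chr13, 5861482 to 5870394, plus strand), which promotes inflammatory gene expression in macrophages, measured 7377, 7526 and 6418 in controls and 10906, 10831 and 10237 in knockouts. Both groups were well apart, with means of 7107 ± 601 and 10658 ± 366, a 1.50-fold difference. Fitted on the log2 scale, it was 0.59 ± 0.08 (SE), with an interval from 0.41 to 0.76 (limma, adjusted p = 0.000354). Klf2 (chr8, 72319033 to 72321656, plus strand), a restraint on inflammatory activation and on endothelial and T cell activation, measured 454, 409.9 and 475 in controls and 651, 632 and 595 in knockouts. All knockout libraries were above all controls, with means of 446 ± 33.0 and 626 ± 28.6, a 1.40-fold difference. This was fitted as a log2 fold change of 0.49 ± 0.09 (SE), with an interval from 0.28 to 0.69 (limma, adjusted p = 0.0035). Endothelial and T cells also make Klf2. The marker sums given above overlapped between the groups for the endothelial list and met at 16.7 to 16.8 for the T and NK list, and their part in the Klf2 value was not tested.

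Klf4 (chr4, 55527143 to 55532466, minus strand), which takes part in monocyte differentiation and in alternative activation, was far less abundant and measured 155, 138 and 154 in controls and 120, 145 and 133 in knockouts. Values of both groups overlapped. Its log2 fold change was -0.17, with an interval from -0.48 to 0.15 (limma, adjusted p = 0.453). Within a library the ratio of Klf2 to Klf4 was 2.98 in controls and 4.70 in knockouts, a difference of 0.66 on the log2 scale with no overlap (exact two-sided permutation test, p = 0.1, the smallest that 3 against 3 libraries allow; 0.2 adjusted over the 6 ratios tested). The calls of Maf, Klf2 and Klf6 held in every alternative run, and the largest adjusted p-values were 0.0427, 0.0335 and 0.0118, each without knockout library 2.

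Bhlhe40 (chr6, 108660629 to 108666925, plus strand), a repressor of the basic helix-loop-helix class, measured 158, 171 and 158 in controls and 128, 108 and 135 in knockouts. Each knockout library was below the controls, with means of 162 ± 7.67 and 124 ± 14.2. The log2 fold change was -0.39 ± 0.15 (SE), with an interval from -0.71 to -0.07, and it did not pass in limma (adjusted p = 0.0795) or in the authors' deposited table (adjusted p = 0.123). It passed with edgeR (-0.43, adjusted p = 0.0459) and with scaling to total reads (-0.52, adjusted p = 0.0265). Its close relative Bhlhe41 was higher in the knockouts, with means of 747 ± 181 and 1133 ± 192 and a log2 fold change of 0.61 (limma, adjusted p = 0.0143), a call lost without control library 2 (0.107), knockout library 1 (0.107) or knockout library 2 (0.0771). The ratio of Bhlhe40 to Bhlhe41 went from 0.222 in controls to 0.111 in knockouts, -1.01 on the log2 scale with no overlap (exact two-sided permutation test, p = 0.1; 0.2 adjusted). Among the 6 ratios this one had the largest difference between groups.

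Neither of the other 2 ratios separated the groups. Irf8 to Spi1, where Spi1 encodes the lineage factor PU.1 that pairs with IRF8 on DNA, was 0.575 in controls and 0.490 in knockouts, and the libraries overlapped (-0.23 on the log2 scale, exact permutation p = 0.2). Runx1 to Cbfb was 1.04 and 1.09, also with overlap (0.07 on the log2 scale, exact permutation p = 0.4). Spi1 measured 6811, 7955 and 8861 in controls and 7731, 8168 and 7945 in knockouts, and Cbfb measured 2257, 2230.5 and 2149 against 2066, 2185 and 2268. The spread of Spi1 among controls was wider than its difference between groups.

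**Figure D2:**
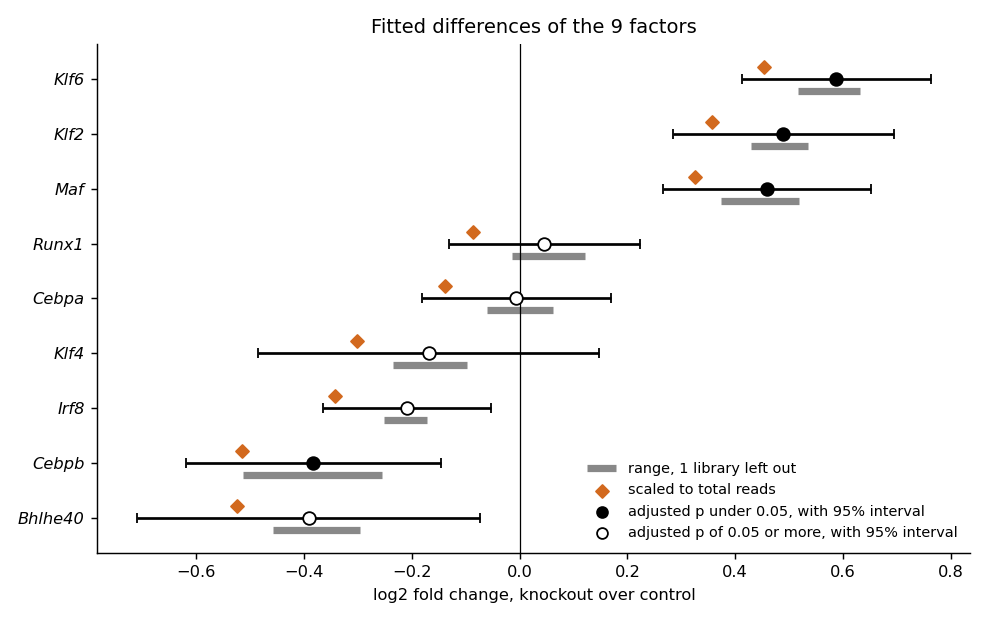
Log2 fold change of each factor, knockout over control. Circles are the limma estimate with its 95% interval (filled where adjusted p was under 0.05), diamonds the estimate with values scaled to total reads, and grey bars the range with 1 library left out in turn. Scaling to total reads moved each factor to the left, and Klf6, Klf2 and Maf stayed above 0 in all of them.

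Scaling to total reads in place of the authors' size factors shifted the median gene by -0.13 on the log2 scale. On that scale Maf was 0.33, Klf2 0.36 and Klf6 0.45 higher in the knockouts and passed the test, and Cebpb (-0.52), Irf8 and Bhlhe40 passed as lower, while Runx1 turned to -0.087. Relative to the shifted median gene, the values were close to those above.

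Per length of transcript, the factors covered a wide range of abundance. In controls the order of normalized counts per kb was Cebpb (2610.2 ± 465), Maf (2296 ± 236), Klf6 (1619 ± 137), Cebpa (1283 ± 113), Irf8 (638 ± 8.34), Klf2 (241 ± 17.8), Runx1 (191 ± 18.7), Klf4 (48.8 ± 3.21) and Bhlhe40 (34.5 ± 1.63). Only the ranges of Cebpb and Maf overlapped among neighbours in that order. In knockouts the order was Maf (3144 ± 10.3), Klf6 (2427 ± 83.4), Cebpb (1981 ± 53.1), Cebpa (1276 ± 54.4), Irf8 (553 ± 31.4), Klf2 (339 ± 15.5), Runx1 (197 ± 1.70), Klf4 (43.5 ± 4.15) and Bhlhe40 (26.3 ± 3.01), with no overlap between neighbours. Cebpb thus went from the first place of the 9 to the third, and the factors from Cebpa downward kept their order. Among 1066 genes that the table assigns to a transcription factor family, Maf ranked 4 in controls and 2 in knockouts, behind Ybx1, and Cebpb ranked 3 and 5. Klf6 ranked 6 and 4, Cebpa 10 and 12, Irf8 37 and 64, and Klf2 146 and 108. Of these 1066 genes, 11.7% were called higher in knockouts and 11.4% lower.

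**Figure D3:**
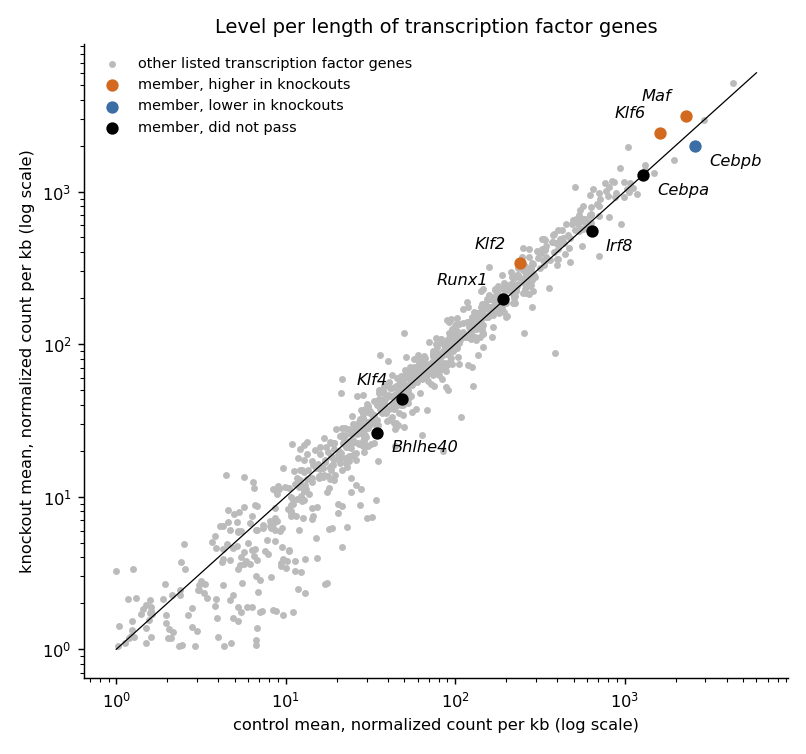
Mean normalized count per kb of transcript in controls (x) and knockouts (y), both on log scales, for 916 listed transcription factor genes at 1 or more in both groups (grey) and the 9 factors (coloured by call). The line marks equal levels. Maf, Klf6 and Klf2 lie above it, Cebpb, Bhlhe40, Irf8 and Klf4 below it, and Cebpa and Runx1 close to it.

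Relatives of the 9 factors included genes called in both directions. Among the 1066 listed transcription factor genes, 11.7% were called higher and 11.4% lower, the shares to set beside the counts that follow. Of 12 other Krüppel-like factors tested, 2 rose, 1 fell and 9 did not pass, with a median log2 fold change of -0.07. Klf3, a repressor that competes for the sites of other family members, rose from 2449 ± 134 to 3103 ± 90.6 (log2 fold change 0.34, limma adjusted p = 0.00606). Klf13 rose from 4718 ± 1242 to 7175 ± 687 (0.63, adjusted p = 0.0106), a call lost without control library 2 (0.074), knockout library 1 (0.0877) or knockout library 2 (0.0724). Klf5, mainly an epithelial factor, fell from 27.0 ± 0.426 to 7.96 ± 9.96 (-2.24, adjusted p = 0.0258), and its knockout libraries were uneven at 2.18, 19.5 and 2.24. That call was lost when any of control libraries 2 and 3 or knockout libraries 1 and 3 was left out (0.0703 to 0.129), and with edgeR (-1.73, adjusted p = 0.0555) and DESeq2 (-1.74, adjusted p = 0.0547). None of 4 other C/EBP genes and none of 5 other MAF genes passed in limma, with medians of -0.27 and -0.15. At an unadjusted p under 0.05 Cebpe and Ddit3 (2 of the 4 C/EBP genes) and 1 of the 5 MAF genes were lower, edgeR called 1 lower in each list, and DESeq2 called 1 of the C/EBP list and 0 of the MAF list.

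Of 8 other interferon regulatory factors, 4 fell and none rose in limma (none either at an unadjusted p under 0.05, or by edgeR or DESeq2), with a median of -0.29. Irf4, which works in alternative activation and in lymphocytes, fell from 60.6 ± 1.37 to 15.8 ± 2.10 (-1.88, limma adjusted p = 0.000482). Irf7, the driver of type I interferon production, fell from 3607 ± 813 to 2319 ± 104 (-0.61, adjusted p = 0.00601), and without control library 2 its adjusted p was 0.0606. Irf1 fell from 1124 ± 336 to 697 ± 33.1 (-0.64, adjusted p = 0.0154) and Irf2 from 1039.8 ± 33.3 to 821 ± 57.0 (-0.34, adjusted p = 0.0123). The Irf1 call was lost without control library 2 or any 1 knockout library (0.0616 to 0.099), and the Irf2 call without control library 2, knockout library 1 or knockout library 3 (0.0585 to 0.0768). Irf4 is also made by B cells, whose marker counts and sums are given above, and their part in the Irf4 value was not tested.

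Among 7 relatives and partners of RUNX1 and BHLHE40, 2 rose, 2 fell and 3 did not pass, with a median of -0.13. Runx3, known from T cells and NK cells and from Langerhans cells, rose from 201 ± 12.9 to 389 ± 36.9 (0.95, limma adjusted p = 0.000149). The T and NK marker sums are given above, and the part of these cells in the Runx3 value was not tested. Runx2, the bone factor, fell from 189.7 ± 13.9 to 133 ± 14.5 (-0.51, adjusted p = 0.0234), a call lost without control library 2 or 3 or knockout library 1 or 2 (0.0685 to 0.1). Id3, an inhibitor of E-protein factors, fell from 193 ± 43.5 to 59.6 ± 14.0 (-1.68, adjusted p = 0.000228). Bhlhe41 was the other that rose. The summed stromal markers were lower in the same libraries, and their part was not tested.

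Of 37 other factors of blood lineages, 6 rose, 12 fell and 19 did not pass, with a median of -0.22. The largest differences belonged to progenitor factors of low abundance. Hoxa9 fell from 37.1 ± 12.0 to 6.38 ± 2.96 (-2.39, limma adjusted p = 0.00218) and Gfi1, a repressor that acts within the granulocyte branch, from 59.4 ± 5.97 to 19.9 ± 2.99 (-1.54, adjusted p = 0.00173). Myb, a factor of cycling progenitors, fell from 73.6 ± 28.4 to 26.6 ± 9.40 (-1.42, adjusted p = 0.0106), with the call lost without control library 2 or 3 or knockout library 1 or 2 (0.0521 to 0.0693). Gata1, an erythroid and megakaryocyte factor, had 18 reads over the controls and 1 over the knockouts, a ratio with a 95% counting interval from 2.51 to 662, and its call was lost with DESeq2 (0.0633) and in 4 of the 6 fits with 1 library left out (0.054 to 0.0959). The megakaryocyte, mast cell and neutrophil precursor marker sums were lower in the same libraries. The genes that rose were Spic, Gfi1b, Ikzf1, Bach1, Fli1 and Nr1h3. Over the 73 other factors tested in these lists, 10 rose, 19 fell and 44 did not pass, with a median of -0.15. The shares over the 1066 listed transcription factor genes were 11.7% higher and 11.4% lower.

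The factors nearest to the called members in their pattern over the 6 libraries were found among those 73 by the root mean square difference of centred log2 values. For Maf this was Bach1, a repressor of heme-responsive genes, at 0.0524. For both Klf6 and Klf2 it was Ikzf1, the lymphoid and myeloid factor Ikaros, at 0.0811 and 0.113. For Cebpb it was Irf3, at 0.0957, which did not pass the test (log2 fold change -0.24, limma adjusted p = 0.216). Group means were not removed, so these distances include the difference between groups by which each member was called. The distances describe 6 libraries in 2 groups, and shared regulation was not tested.

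Proteins that control the turnover of C/EBPα were measured as RNA too. TRIB1 and TRIB2 bring the ubiquitin ligase COP1 to C/EBPα. Trib2 fell from 109.9 ± 8.14 to 35.6 ± 3.16 (-1.60, limma adjusted p = 0.000173), while Trib1 (0.05, adjusted p = 0.692) and Cop1 (0.15, adjusted p = 0.237) did not pass. Trib3, a stress-induced relative, rose from 41.4 ± 12.2 to 92.9 ± 14.9 (1.18, adjusted p = 0.00649), a call lost without knockout library 2 (0.0603). Of the 5 genes in this list 1 rose, 1 fell and 3 did not pass, with a median of 0.05.

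**Figure D4:**
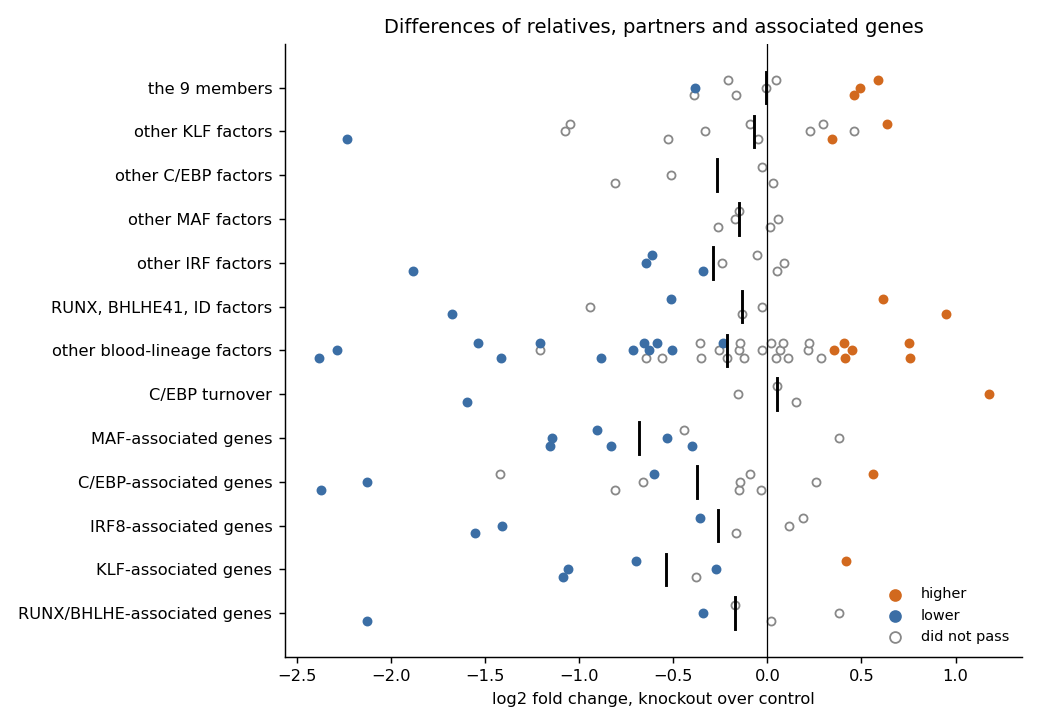
Log2 fold change, knockout over control, of the 9 factors and of each list of relatives, partners and associated genes. Each point is 1 gene (orange, higher; blue, lower; open, did not pass), spread vertically for legibility, and black ticks are list medians. The medians of the 5 lists of associated genes lie at or below -0.17, against -0.0059 for the 9 factors.

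Genes known to depend on or be bound by the 9 factors were mostly lower where they differed. Of 34 such genes tested, members left out, 2 rose, 17 fell and 15 did not pass, with a median of -0.42, against -0.04 over all genes. Over all genes tested, 10.4% were called higher and 10.5% lower. Elane and Mpo among the 34 are also neutrophil markers, and the part of other cells in these values was not tested. The fall was widest among genes associated with MAF in resident macrophages, although Maf itself rose: 6 of 8 fell and none rose in limma (only Il10 at an unadjusted p under 0.05, and none by edgeR or DESeq2), with a median of -0.68. Mrc1, the mannose receptor, fell from 13443 ± 1616 to 6019 ± 306 (-1.15, limma adjusted p = 6.35e-06), and Folr2, which binds folate on resident cells, from 245 ± 6.39 to 111 ± 14.4 (-1.14, adjusted p = 0.000146). Cd163, the hemoglobin scavenger receptor, fell from 595 ± 51.6 to 317 ± 18.7 (-0.91, adjusted p = 8.24e-05) and C1qa, a chain of complement C1q, from 16158 ± 2312 to 9014 ± 378 (-0.83, adjusted p = 0.000129). C1qb and C1qc were the other 2 that fell. Il10, which MAF activates and BHLHE40 represses, measured 272, 350.0 and 428 in controls and 399, 462 and 489.6 in knockouts, with overlap (log2 fold change 0.38, adjusted p = 0.0944).

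Of 12 genes associated with C/EBP factors, 1 rose, 3 fell and 8 did not pass, with a median of -0.38. Elane and Mpo, granule proteins of neutrophil precursors, fell from 710.5 ± 21.3 to 138 ± 21.8 (-2.37, limma adjusted p = 4.21e-07) and from 1363 ± 213 to 315 ± 84.8 (-2.13, adjusted p = 5.31e-06). Both are also on the neutrophil marker list, whose sum was lower in the same libraries. Lcn2, an iron-binding acute-phase protein, fell from 1838 ± 277 to 1202 ± 31.4 (-0.60, adjusted p = 0.00165). Lyz2, lysozyme, rose from 138291 ± 12220.1 to 203340.1 ± 8226 (0.56, adjusted p = 0.00414), and without control library 2 its adjusted p was 0.055. Lyz2 is the gene that carries Cre in the knockouts, and what that insertion does to its reads was not tested.

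Of 6 genes associated with IRF8, Klf4 among them, 3 fell and none rose in limma (none either at an unadjusted p under 0.05, or by edgeR or DESeq2), with a median of -0.26. Ly6c2, a monocyte surface protein, fell from 654 ± 87.6 to 245 ± 31.3 (-1.41, limma adjusted p = 1.42e-05), Ctss, a lysosomal protease, from 23022 ± 3128 to 17857 ± 868 (-0.36, adjusted p = 0.0246) and Il12b, a cytokine subunit, from 18.5 ± 8.37 to 5.29 ± 1.09 (-1.55, adjusted p = 0.0329). The Ctss call was lost without control library 2 or any 1 knockout library (0.0938 to 0.137), and the Il12b call without any 1 library except control library 1 (0.0656 to 0.15). Of 6 genes associated with Krüppel-like factors, 1 rose and 4 fell, with a median of -0.54. Ccl2, the monocyte chemoattractant, fell from 741 ± 67.9 to 348 ± 1.41 (-1.09, adjusted p = 1.43e-05) and S1pr1, a receptor for exit from tissue that KLF2 activates in T cells, from 753 ± 53.5 to 361 ± 14.6 (-1.06, adjusted p = 1.37e-05). Thbd, thrombomodulin, another gene activated by KLF2, rose from 512 ± 35.8 to 683 ± 41.5 (0.42, adjusted p = 0.00824), a call lost without control library 2 (0.0609) or knockout library 3 (0.0556) and with scaling to total reads (0.052). Genes activated by KLF2 thus included members that rose and members that fell.

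Of 5 genes associated with RUNX1 or BHLHE40, 2 fell and none rose in limma (only Il10 at an unadjusted p under 0.05, and none by edgeR or DESeq2), with a median of -0.17. Besides Mpo this was Csf1r, the M-CSF receptor, which fell from 45888 ± 3282 to 36103 ± 338 (-0.34, limma adjusted p = 0.0149). The Csf1r call was lost without control library 2 or any 1 knockout library (0.0778 to 0.093). Spi1 and Il10 were among the 3 that did not pass.

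In wild-type macrophages, each of the 9 factors had an Ets1 peak within 1 kb of its start site in both M1 and M2. This is common among expressed genes: of 9843 genes with a control mean of at least 100, 73.0% had such a peak in M1 and 75.1% in M2. With the wider window of 10 kb around the start or the gene body, the shares were 87.8% and 89.5%. Counting only peaks with a −log10 q of at least 10 in that window, 7 of the 9 had one in M1, where Cebpa and Maf did not, against 55.3% of expressed genes. In M2 8 of the 9 had one, where Irf8 did not, against 62.2%. Each state was 1 library, so nothing below has a replicate check, and fold enrichment (the summit over the caller's background) and q are the authors' values for each peak.

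The 9 factors held 26 of 23089 peaks in M1 and 21 of 22640 in M2. Of these, 20 of the 26 overlapped a peak of the other state and 18 of the 21, against 63.8% of all M1 peaks and 63.5% of all M2 peaks. When overlap had to cover 50% of both peaks, 12 in each state did. The share of all peaks that meet this stricter rule was not counted, so 12 cannot be called high or low. The fold enrichment of these peaks ran from 2.62 to 14.4 in M1, with a median of 4.85 against 5.68 over all M1 peaks. In M2 it ran from 2.91 to 11.9, with a median of 5.66 against 5.90 over all.

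By −log10 q, the strongest start-site peaks in both states belonged to the Krüppel-like factors and Bhlhe40. At Klf6 (M1 peak chr13:5861130-5861544) the fold enrichment was 14.4 in M1 and 10.0 in M2, with −log10 q of 51.8 and 44.8, and the summits lay 87 and 305 bases before the start. The Klf6 window printed above lies wholly within this M1 peak. At Klf4 (chr4:55532160-55533110 in M1) it was 12.5 and 11.9, with −log10 q of 64.2 and 111, although the RNA of Klf4 overlapped between the groups. At Bhlhe40 (chr6:108659377-108660881 in M1) it was 10.2 and 9.94, with −log10 q of 90.8 and 273, and by q the M2 peak ranked 31 of 22640 and the M1 peak 168 of 23089. At Klf2 (chr8:72318660-72319481 in M1) it was 9.44 and 8.16, with −log10 q of 48.9 and 64.5. High enrichment was therefore found at factors whose RNA rose (Klf6, Klf2) and at factors that did not pass (Klf4, Bhlhe40).

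The start-site peaks of the other 5 factors had a lower −log10 q in both states and a lower fold in M1, while in M2 the fold at Maf (8.99) was above that at Klf2 (8.16). Maf had 2 M1 peaks near its start (chr8:115706977-115707399 and chr8:115707856-115708247), the stronger with a fold of 5.42 and a −log10 q of 5.46. A single M2 peak spanned both (chr8:115706976-115708293), with a fold of 8.99 and a −log10 q of 18.4. Cebpa showed the same layout, with 2 M1 peaks, the stronger at a fold of 4.81 and a −log10 q of 4.83, and 1 M2 peak over both (chr7:35118315-35119654) at 8.15 and 28.5. Cebpb had a broad start-site peak in each state at folds of 3.94 and 4.14 and −log10 q of 7.70 and 12.9, which also lay within 1 kb of the start of Tmem189. Irf8 had the weakest start-site peaks by q, with folds of 4.39 and 4.51 and −log10 q of 3.23 and 3.99. Runx1 had folds of 4.88 and 5.55 and −log10 q of 5.52 and 11.4. The fold was higher in M1 at 4 factors (Klf2, Klf4, Klf6 and Bhlhe40) and higher in M2 at 5, and −log10 q was higher in M2 at 8. Over all peaks the median −log10 q was also higher in M2, at 7.28 against 5.87 in M1. With 1 library a state these are values of 2 libraries and not a test of polarization.

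**Figure D5:**
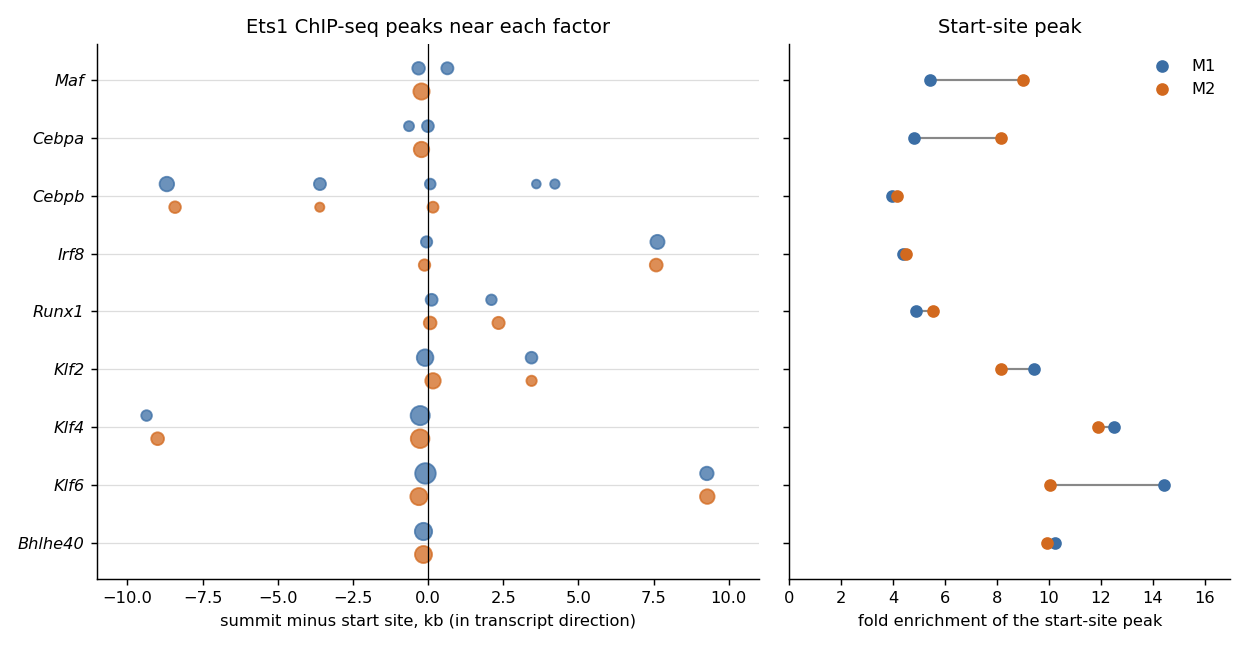
Ets1 ChIP-seq peaks of the 9 factors in M1 (blue) and M2 (orange), 1 library each. Left, distance of each summit from the start site in kb, with point area proportional to fold enrichment; 6 M1 and 5 M2 peaks deeper in the gene bodies of Runx1 and Irf8 lie outside the panel. Right, fold enrichment of the peak at the start site, where Klf6, Klf4, Bhlhe40 and Klf2 reach at least 8.16 in both states.

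Away from the start sites, 5 factors had further peaks that both states shared. Cebpb had shared peaks with M1 summits 8687 and 3596 bases before its start. The first (chr2:167680048-167680513 in M1) had a fold of 7.23 in M1 and 4.65 in M2, higher in both than the peak at its start. By −log10 q it was above the start-site peak in M1 (10.0 against 7.70) but below it in M2 (5.30 against 12.9). Irf8 had a shared intragenic peak with its summit 7628 bases after the start in M1 (chr8:120743728-120744218). Its folds were 6.82 and 5.66 and its −log10 q 10.2 and 9.43, both above the start-site peak of Irf8 in each state. Klf2 had a shared peak 3440 bases after its start, beyond the gene end, at folds of 4.74 and 3.64, and Klf6 one 9271 bases after its start at 6.23 and 7.26. Runx1 had 7 peaks in each state across its long gene body. Its highest fold in both states was at an intragenic peak (chr16:92620589-92621361 in M1), at 10.7 in M1 and 8.62 in M2, with −log10 q of 27.0 and 18.2. The peak at the second Runx1 promoter, printed above with its CCGGAA, had a fold of 4.32 and a −log10 q of 3.58 in M1 and 7.28 and 16.0 in M2. Within the region searched (10 kb around the start or the gene body), Maf, Cebpa and Bhlhe40 had no peak beyond 1 kb of their start sites in either state. Klf4 had 1 such peak in each state, 9361 bases before its start in M1 and 8994 in M2, and these did not overlap each other.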

How the data were processed

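RNA libraries (3 control and 3 knockout) and Ets1 ChIP-seq peak lists (1 library for M1 and 1 for M2) were analysed. For RNA, the tools named per the submitters' processing notes are Bowtie2 2.2.3, HISAT2 2.1.0 and HTSeq 0.6.0. For ChIP they are BWA, SAMtools, MACS2, deepTools and DESeq2, and the build is mm10. What each tool did, the use of strand in counting, the annotation and the threshold for peaks were not given in the sources used here. Expression values deposited by the authors are a normalized signal, gene counts divided by 1 size factor per library. Dividing by the smallest step of a library gave whole reads within 0.001 for 100.0% of values. The authors' deposited table also holds log2 fold changes of control over knockout and p-values. For each factor examined, its fold change and adjusted p-value match the DESeq2 fit on recovered reads described below, with the sign reversed. The peak lists deposited by the authors hold a score, a fold enrichment (a ratio), a −log10 p and a −log10 q for each peak.

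The comparison was made with the test for normalized values, limma 3.58.1 with a trend on log2(value + 1) (R 4.3.3), for genes whose mean reached 1 in one of the groups, with Benjamini-Hochberg adjustment over the 20595 genes tested and a threshold of 0.05. Fold changes are knockout over control on that log2 scale, which understates changes of low genes, and folds in words are ratios of means. edgeR 4.0.16 (quasi-likelihood, TMM) and DESeq2 1.42.0 on the recovered reads, pseudocounts of 0.5 and 4, other filters, scaling to total reads, a replicate block and leaving out each library were alternatives. On recovered reads, edgeR called 1917 genes higher and 2364 lower. Log2 ratios of 2 factors within a library were compared by exact permutation (SciPy 1.17.1). The fits were tested on simulated data. Levels per kb use the gene length deposited in the authors' table. Intervals of reads cover counting error only.

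The 9 factors, the gene lists and the tests were chosen with earlier results of these data known, so no list is independent support. Besides the 9 factors, Ets1 and the ratio partners, the genes named were up to 4 per list with the largest absolute log2 fold change among those with an adjusted p under 0.05 and no overlap between groups, and the factor nearest in pattern to each called member. Other genes named (the rest of the called genes in short counts, Il10, the marker genes, Trib1 and Cop1, and Tmem189, which overlaps Cebpb) were added after their values were seen. Some items that the rule names, 1 of the 6 ratios among them, are not reported here. Promoter windows are from RefSeq on GRCm38.p6, which is the assembly of mm10. They were matched by symbol for 7 of 9 factors, and Maf and Bhlhe40 were not matched.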

Additional observations from a re-analysis of the deposited data

How the results depend on the processing

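With 3 libraries a group, small differences of the 9 factors lie near the limit of what the test can call. Scaling to total reads moved the calls over all genes from 2142 higher and 2156 lower to 1187 and 3255, a shift of the whole scale by -0.13. Leaving out 1 library gave 873 to 2976 genes higher and 1070.0 to 2740.0 lower. The 3 factors called higher were 3 in every alternative. The factors called lower were 1 in the main test, 2 with a mean of at least 10, with DESeq2 and with the replicate block, 3 with scaling to total reads and with edgeR, and 0 to 2 with 1 library left out. Irf8 (-0.21) passed with a mean of at least 10 (-0.21), scaling to total reads (-0.34), edgeR (-0.25), DESeq2 (-0.21) and the replicate block (-0.21, adjusted p = 0.0372), and ran from -0.25 to -0.17 with 1 library left out. Bhlhe40 passed with scaling to total reads (-0.52) and edgeR (-0.43). Cebpb ran from -0.51 to -0.25 with 1 library left out, and in 5 of those 6 fits it did not pass. Runx1 turned to -0.087 with scaling to total reads and ran from -0.015 to 0.12 with 1 library left out, and Cebpa from -0.061 to 0.062. Spi1 turned to -0.11 with scaling to total reads and -0.027 with edgeR, and with 1 library left out Spi1 ran from -0.079 to 0.11 and Cbfb from -0.058 to 0.0095. The cause was not tested. All 42 alternative values of the 6 ratios kept their direction. With a reciprocal overlap of 50%, the M1 peaks shared with M2 went from 20 to 12.

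The replicate numbers appear in both groups, but the labels do not say what a number shares. Deviations of same-numbered libraries correlated at 0.116, 0.0344 and 0.0527 over genes, and those of differently numbered libraries at -0.112 to 0.062. Values this low neither show nor exclude a pairing, and the main test used none. The replicate block called 2652 genes higher and 2722 lower. Of the 126 alternative values of single factors, 109 kept direction and side of the threshold.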
